A study of Homo sapiens with 8 samples.

Results

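Coagulation and plasminogen activation genes were read in 4 human renal carcinoma cell lines given a desaturase inhibitor. The members are 8 genes: thrombomodulin (THBD), tissue factor (F3), the plasminogen activators of tissue type (PLAT) and urokinase type (PLAU), the urokinase receptor (PLAUR), the protease inhibitor nexin-1 (SERPINE2), and the inhibitors TFPI and TFPI2. They were taken as all probe sets that the platform annotation gives to exactly 1 of these genes, which made 19 of 54675 probe sets, or 8 of the 19775 genes with a named probe set. ACHN, CAKI2, A498 and CAKI1, established kidney cancer lines that the submitters call clear cell carcinoma, were each measured on 2 arrays. In the treated group (4 arrays, 1 per line) cells received A939572 at 75 nM for 24 h, a compound that blocks stearoyl-CoA desaturase 1. In the control group (4 arrays, 1 per line) cells of the same lines received DMSO for the same time. The labels name no gene edit or other agent in either group, and no repeat culture within a line. The p-values therefore rest on how far the differences spread between these lines. The variance of each gene was also drawn towards that of genes of like level. All cultures were grown in medium with 5% serum, and hold neither blood cells nor vessel wall.

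Clotting starts when tissue factor meets factor VII of the blood. TFPI blocks that step, while thrombomodulin holds thrombin and turns it from a clotting enzyme into an activator of the anticoagulant protein C. Fibrin is dissolved by plasmin, which the plasminogen activators release from plasminogen, and urokinase does so at the cell surface when bound to its receptor. Kidney tubule cells are a known source of urokinase, and tumour cells use the same proteases to break down matrix.

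Treated and control cells were compared on quantile normalized log2(signal + 16), an offset that understates changes of dim genes. Each gene was represented by its brightest probe set. The fit was limma with the cell line as a block, 2-sided, and a gene was called at a Benjamini-Hochberg adjusted p under 0.05 over all 12093 genes at or above the median level. All 8 members passed that level. One of the 8, THBD, was higher with A939572, and 2 of the 8, PLAT and PLAU, were lower. Of all genes tested, 14.7% were called higher and 15.9% lower, 30.6% in all, so 3 called of 8 is near the background share. With median centring in place of quantile normalization, 2163 genes were higher and 1544 lower, against 1778 and 1928. The median log2 difference was 0.20 over the members and -0.03 over all genes. Among the 19 probe sets, each tested in a fit of 27307 probe sets, 4 were higher and 3 lower. In that fit 13% of all probe sets were called higher and 13% lower.

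**Figure D1:**
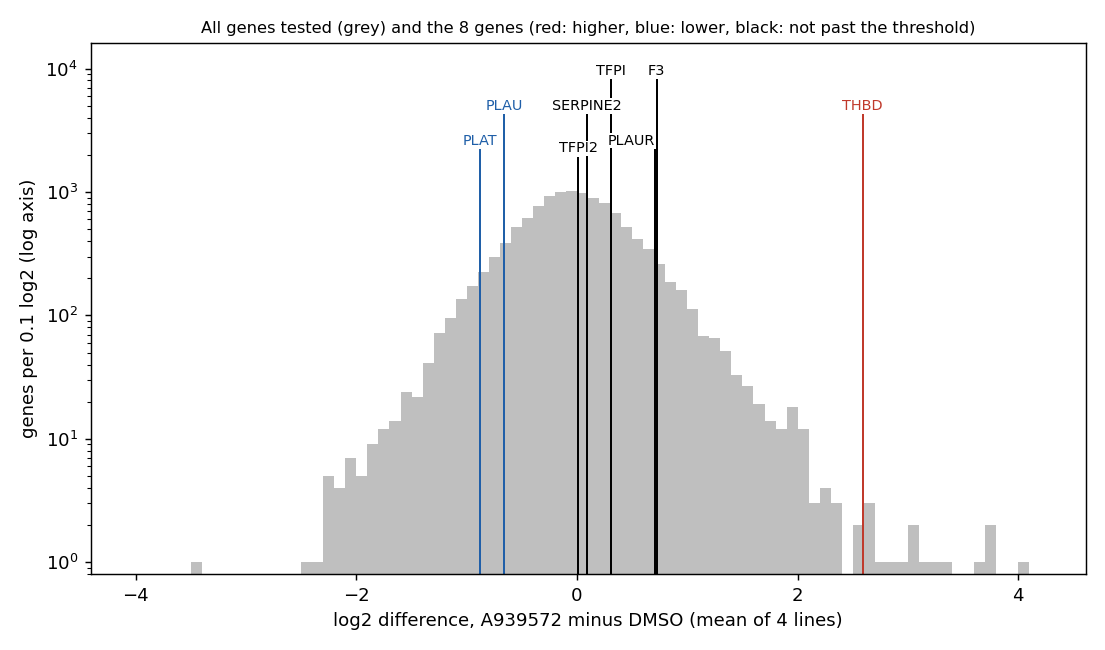
Distribution of the log2 difference, A939572 minus DMSO, over the 12093 genes tested (grey bars, counts on a log axis), with a vertical line at the mean over 4 lines of each of the 8 genes. THBD, at 2.59, lies in the far right tail, while PLAT (-0.88) and PLAU (-0.66) lie left of the centre.

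On the arrays of treated cells the 3′ over 5′ control ratio of ACTB was 3.02 to 4.22, against 2.12 to 2.33 in DMSO, and that of GAPDH was 1.01 to 1.11 against 0.962 to 1.05. The part of this shift in the results was not tested. Of 10 markers of kidney epithelium and renal carcinoma, 6 lay at or above the median level. Among them were PAX8 (4079 to 8278 units) and KRT18 (6900 to 21788 units). CDH1 and the proximal tubule genes LRP2, CUBN and AQP1 lay below it, although CDH1 read 514 units in ACHN in DMSO and 60.3 with A939572. PAX8 was higher in treated cells by 0.38 on the log2 scale (limma adjusted p = 0.0294). KRT8, PAX2 and KRT18 had -0.49, -0.43 and -0.33, and CDH2 and VIM 0.05 and 0.06, none of which passed. Of 6 endothelial markers 1 reached the median level, PECAM1. The others, CDH5, VWF, KDR, TEK and CLDN5, reached at most 48.9 units on any array. The summed endothelial signal was 196 to 559 units in DMSO and 224 to 373 units in treated cells. No marker of hepatocytes, leukocytes or platelets (0 of 4 in each list) reached the median level. Of 4 fibroblast markers 1 did, COL1A1, which fell by 1.04 on the log2 scale (limma adjusted p = 0.00318), and the summed fibroblast signal was 152 to 1389 units in DMSO and 156 to 993 units in treated cells. The part of this in the results was not tested. Fewer cells with a transcript and less of it per cell cannot be told apart in such extracts.

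THBD, the endothelial thrombin receptor that starts the protein C pathway, rose in every line. Its signal in DMSO was 137 units in ACHN, 1186 in CAKI1, 1296 in CAKI2 and 507 in A498. After A939572 it was 2518 units in ACHN, 4740 in CAKI1, 8560 in CAKI2 and 1676 in A498. Every treated array lay above every control array. The treated signal was 18.4 times the control signal in ACHN and 3.30 times in A498, the highest and lowest of the lines. The log2 difference was 2.59 ± 1.06 (SD, n = 4 lines), a 6.02-fold mean rise (limma adjusted p = 0.000705), which was the 16th largest rise among all genes tested. The lines differed more in size than is usual: the SD exceeded that of 97.5% of genes, whose median SD was 0.31. ACHN, the line with the lowest control signal, had the largest rise at 4.04, and A498 the smallest at 1.69. No test of a difference between lines in the response was possible with 1 array per line and treatment.

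The other THBD probe sets moved the same way. Probe set 203888_at had a log2 difference of 2.73 ± 1.40 (limma adjusted p = 0.00147) and 237252_at one of 1.88 ± 0.63 (limma adjusted p = 0.000786), with a rise in 4 of 4 lines in both. In 203888_at the signal in ACHN went from 30.1 to 1109 units, and in 237252_at from 53.1 to 285 units, both from a control value below that array's median signal of 77.6 units. ACHN led in the former, at 4.63, but CAKI2 led in the dimmest, at 2.60 against 2.22 in ACHN. With no block for the line, THBD lost its call (limma adjusted p = 0.157), as did PLAT (0.253) and PLAU (0.941).

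**Figure D2:**
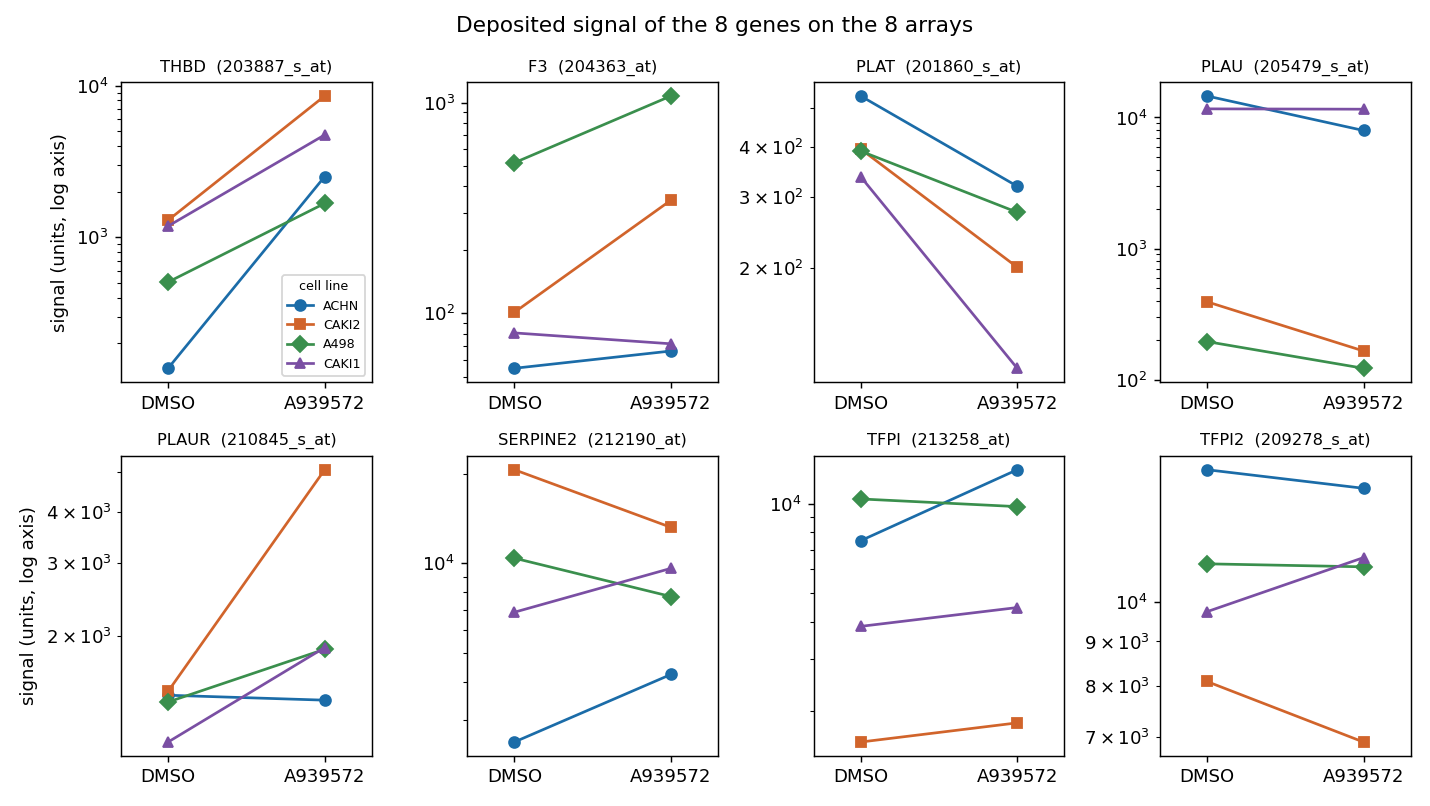
Deposited signal (units, log axis, scales differ between panels) of the brightest probe set of each gene in DMSO and A939572, joined within each of the 4 cell lines. THBD climbs in every line and PLAT falls in every line, while PLAU splits into ACHN and CAKI1, at 7959 units or more, and CAKI2 and A498, at 392.4 units or less.

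F3 encodes tissue factor, the membrane receptor that starts clotting. Its only probe set, 204363_at, was at 54.9 units in ACHN, 80.8 in CAKI1, 101 in CAKI2 and 518 in A498 in DMSO. With A939572 it was at 66.3 units in ACHN, 71.7 in CAKI1, 344 in CAKI2 and 1075 in A498. Signals of treated and control arrays overlapped. The log2 difference was 1.64 in CAKI2 and 1.02 in A498, but 0.37 in ACHN and -0.14 in CAKI1. The mean of 0.72 ± 0.77 (SD, n = 4 lines) did not pass (limma adjusted p = 0.0893). Without CAKI1 the log2 difference of F3 was 1.01 (limma adjusted p = 0.0325).

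The promoter of F3 is shown because it carries 2 copies of the AP-1 site, the binding motif of the FOS and JUN factors, and those of PLAUR and TFPI2 because they carry it as well. The motif searched was TGANTCA on both strands, in the 250 bases before each gene start of the RefSeq table (GRCh38.p14), which holds 6 of the 8 members. THBD and PLAT had no entry. The 6 members have 8 windows there, since PLAU and SERPINE2 have 2 starts each. The AP-1 site occurred in 3 of these 8 windows, in 3 of the 6 members, and in 6.57% of all 35116 windows of that length. It was 1 of 7 motifs searched, and was chosen for display after the matches were seen. The GC box GGGCGG was in 5 of the 8 windows against 42.6% of all, the CACCC box in 4 against 54.7%, the E box CACGTG in 1 against 6.34% and the TATA box TATAAA in 1 against 10.7%. Each sequence runs 5′ to 3′ on the gene's strand and ends 1 base before the start, with the AP-1 letters in capitals. They lie at chr1:94541760-94542009 (F3, strand -), chr19:43670170-43670419 (PLAUR, strand -) and chr7:93890754-93891003 (TFPI2, strand -).
F3: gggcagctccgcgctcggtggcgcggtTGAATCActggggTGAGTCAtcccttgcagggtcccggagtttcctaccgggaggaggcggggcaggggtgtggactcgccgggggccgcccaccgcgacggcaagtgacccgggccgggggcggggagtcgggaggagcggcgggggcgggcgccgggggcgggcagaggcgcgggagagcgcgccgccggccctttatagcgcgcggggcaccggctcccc
PLAUR: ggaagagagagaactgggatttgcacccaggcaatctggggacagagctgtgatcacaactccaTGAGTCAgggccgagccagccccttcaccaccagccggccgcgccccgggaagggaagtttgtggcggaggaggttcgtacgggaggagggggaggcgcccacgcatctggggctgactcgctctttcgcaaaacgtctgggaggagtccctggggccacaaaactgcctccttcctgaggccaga
TFPI2: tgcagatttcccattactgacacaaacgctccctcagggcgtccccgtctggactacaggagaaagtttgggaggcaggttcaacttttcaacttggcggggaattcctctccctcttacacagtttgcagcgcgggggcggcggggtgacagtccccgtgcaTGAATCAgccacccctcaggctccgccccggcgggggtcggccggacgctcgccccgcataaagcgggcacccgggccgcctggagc
The F3 copies start 223 and 210 bases before the gene start, and the second shares bases with a CACCC box, another motif searched, that starts at 213. The PLAUR copy begins at 186 and the TFPI2 copy at 87. The cyclic AMP element TGACGTCA and the ATF4 core TGATGNAA were in 0 of the 8 windows, and in 1.65% and 3.14% of all windows. These are matches of letters, and no binding was measured. With A939572, F3, PLAUR and TFPI2 had log2 differences of 0.72, 0.70 and 0.01 in their brightest probe sets, none of which passed. Of the members without the site in these windows, PLAU had -0.66, TFPI 0.31 and SERPINE2 0.09. Sequence further from the starts was not searched. A link between the site and the response was not tested.

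TFPI, which inhibits the complex of tissue factor and factor VII, did not pass in any of its 5 probe sets. In the brightest, 213258_at, the signal went from 7498 to 13008 units in ACHN, from 1573 to 1826 in CAKI2, from 10368 to 9770 in A498 and from 3859 to 4466 in CAKI1. The groups overlapped. Its log2 difference was 0.31 ± 0.35 (SD, n = 4 lines; limma adjusted p = 0.123), where ACHN had 0.82 and no other line more than 0.20. In A498 it was 0.03 after normalization, although the deposited signal was lower in treated cells. In the other 4 probe sets the mean ran from -0.16 to 0.27, with limma adjusted p from 0.352 to 0.749. A498 had the lowest difference of the lines in all 5.

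TFPI2, a relative of TFPI that inhibits plasmin and other matrix proteases, was bright in every line and did not pass in either probe set. Probe set 209278_s_at had 14158, 8100, 11046 and 9735 units in DMSO in ACHN, CAKI2, A498 and CAKI1. With A939572 it had 13481, 6904, 10959 and 11228 units. The log2 difference was 0.01 ± 0.19 (SD, n = 4 lines; limma adjusted p = 0.948), with an SE of 0.10. Its other probe set, 209277_at, had 0.37 ± 0.31 (limma adjusted p = 0.0611), where CAKI2 had -0.04 and the rest 0.35 to 0.71.

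The plasminogen activators were lower with A939572. PLAT, the tissue-type activator, had 536 units in ACHN, 338 in CAKI1, 396 in CAKI2 and 391 in A498 in DMSO. Treated cells had 320 units in ACHN, 113 in CAKI1, 201 in CAKI2 and 275 in A498. The highest treated array lay below the lowest control array. Its only probe set, 201860_s_at, fell by 0.88 ± 0.40 on the log2 scale (SD, n = 4 lines; limma adjusted p = 0.00838), in 4 of 4 lines. CAKI1 had the largest difference, -1.42, and A498 the smallest, -0.50.

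PLAU, the urokinase gene, fell by 0.66 ± 0.50 on the log2 scale in 205479_s_at (SD, n = 4 lines; limma adjusted p = 0.0234). Its signal went from 14605 to 7959 units in ACHN, from 392.4 to 165 in CAKI2, from 195 to 122 in A498 and from 11641 to 11573 in CAKI1. The log2 difference was -0.90 in ACHN, -1.18 in CAKI2 and -0.55 in A498, while CAKI1 had -0.03. The second probe set, 211668_s_at, had a mean of -0.90 ± 0.76 (limma adjusted p = 0.0264) but another order of lines, with -1.47 in ACHN, -1.64 in A498, -0.24 in CAKI2 and -0.26 in CAKI1. In A498 this probe set read 66.9 units in DMSO and 8.34 in treated cells, both under the median level. The call of PLAU was lost without ACHN (-0.58, limma adjusted p = 0.0956), without CAKI2 (-0.49, 0.0816), without A498 (-0.71, 0.0506) and without the variance trend (0.0587).

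PLAUR, the receptor that holds urokinase at the cell surface, rose in 1 of its 3 probe sets. In 210845_s_at the signal went from 1430 to 1391 units in ACHN, from 1462 to 5075 in CAKI2, from 1377 to 1852 in A498 and from 1100 to 1870 in CAKI1. The groups overlapped through ACHN. The log2 difference was 0.70 ± 0.77 (SD, n = 4 lines), with 1.76 in CAKI2 and -0.05 in ACHN, and it did not pass (limma adjusted p = 0.0573). It passed with median centring of the arrays (0.81, limma adjusted p = 0.0253), with values as deposited (0.73, 0.0476), over the genes with a mean of at least 8 (0.70, 0.0488) and without ACHN (0.96, 0.0241). Probe set 211924_s_at rose by 1.12 ± 0.71 (limma adjusted p = 0.00708), in 4 of 4 lines, again most in CAKI2 at 2.09. The third, 214866_at, had 0.05 ± 0.26 (limma adjusted p = 0.859), and CAKI2 was highest there too, at 0.41.

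SERPINE2, which inhibits thrombin, urokinase and tissue-type activator, had differences of opposite sign between lines. Its bright probe set 212190_at went from 2523 to 4249 units in ACHN and from 6865 to 9628 in CAKI1. It went from 20602 to 13208 units in CAKI2 and from 10417 to 7748 in A498. The log2 differences were 0.73 in ACHN and 0.50 in CAKI1, against -0.51 in CAKI2 and -0.35 in A498. The mean of 0.09 ± 0.62 did not pass (limma adjusted p = 0.753). In the dim second probe set, 227487_s_at, ACHN had the opposite sign, at -0.73, while CAKI1 had 0.96.

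**Figure D3:**
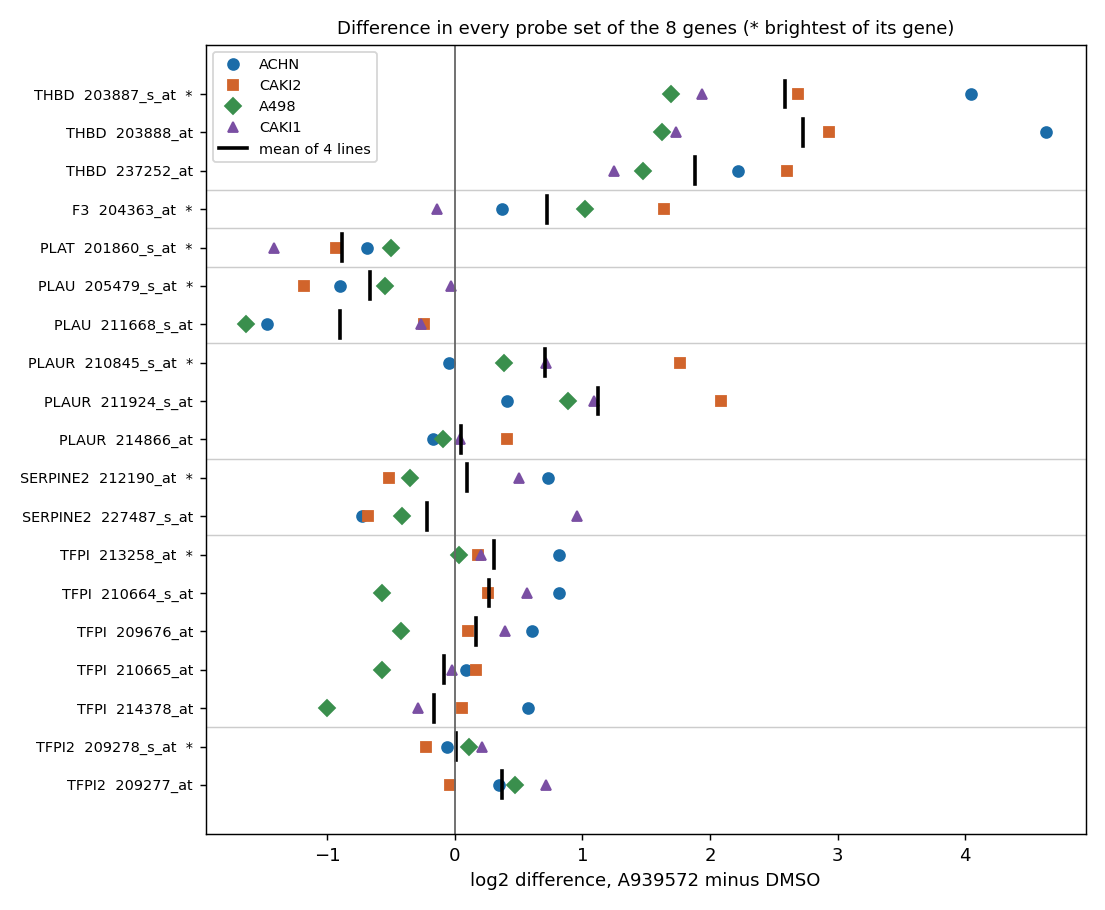
Log2 difference, A939572 minus DMSO, in each of the 19 probe sets, with 1 symbol per cell line and a black bar at the mean of the 4 lines. All 12 THBD points lie at 1.24 or higher, and CAKI2 has the highest point in F3 and in each PLAUR probe set.

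The lines differed in the level of most members, as they did in most genes tested. A moderated F test of line in limma, with treatment in the fit, called 6 of the 8 members, all but PLAT (adjusted p = 0.0605) and PLAUR (0.0930), and 61% of all genes. Of 48 pairwise contrasts between lines, 27 passed after adjustment over all genes and contrasts, against 33.1% of all contrasts. The spread in this test is the departure of the lines from a common treatment difference, since each line has 1 array per treatment.

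PLAU set the lines furthest apart, by 6.12 on the log2 scale between CAKI1 and A498, or 69.5-fold, where the median span of all genes was 0.95. Its mean log2 level was 13.46 in CAKI1, 13.40 in ACHN, 8.07 in CAKI2 and 7.34 in A498. CAKI1 and ACHN did not differ beyond the spread (limma adjusted p = 0.889), nor did CAKI2 and A498 (0.0585), while each of the 4 contrasts across these pairs passed (1.93e-06 or lower). In the second PLAU probe set, 211668_s_at, CAKI2 and A498 did pass against each other, with a difference of 1.32 (limma adjusted p = 0.0213). F3 was highest in A498, the line lowest in PLAU, with 9.55 in A498, 7.66 in CAKI2, 6.59 in CAKI1 and 6.28 in ACHN. CAKI2 minus A498 was -1.89 (limma adjusted p = 0.00756), whereas neighbouring CAKI2 and CAKI1 (0.0764) and CAKI1 and ACHN (0.599) did not pass.

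THBD was highest in CAKI2 (mean log2 level 11.73) and CAKI1 (11.23), which did not pass against each other (limma adjusted p = 0.438), and lowest in A498 (9.85) and ACHN (9.26), which did not either (0.359). CAKI1 was above A498 by 1.37 (limma adjusted p = 0.0447), a contrast that passed in 237252_at (0.0168) but not in 203888_at (0.129). These THBD levels average both treatments, and the lower pair changed places: in DMSO ACHN had 7.24 and A498 9.01, and with A939572 ACHN had 11.29 and A498 10.70. SERPINE2 was highest in CAKI2 (14.00), followed by A498 (13.16), CAKI1 (12.96) and ACHN (11.68). In SERPINE2 CAKI2 passed against A498 (limma adjusted p = 0.0449) and CAKI1 against ACHN (0.00742), and A498 against CAKI1 did not (0.622). In its dim probe set 227487_s_at CAKI1 passed against ACHN (limma adjusted p = 0.0449), but CAKI2 did not against A498 (0.162). TFPI2 ran from 13.78 in ACHN to 12.86 in CAKI2, where the CAKI2 level lay below CAKI1, the next higher line, by 0.45 (limma adjusted p = 0.0399), and where ACHN and A498 (0.130) and A498 and CAKI1 (0.424) did not pass. In the other TFPI2 probe set, 209277_at, CAKI2 minus CAKI1 was -0.14 and did not pass (limma adjusted p = 0.624). PLAT was within 0.96 from ACHN to CAKI1, the only contrast of its 6 to pass (limma adjusted p = 0.0246), and PLAUR had 0 of 6, with 0.98 between CAKI2 and ACHN (0.0573). In the PLAUR probe set 211924_s_at ACHN minus CAKI2 was -1.25 and passed (limma adjusted p = 0.0191).

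The probe sets of TFPI ranked the lines differently. In the brightest, 213258_at, the mean log2 level was 13.34 in A498 and 13.30 in ACHN, above 11.99 in CAKI1 and 10.76 in CAKI2. There ACHN and A498 did not pass against each other (limma adjusted p = 0.900), and CAKI2 minus CAKI1 was -1.23 (0.00145). In 210665_at it was 10.88 in ACHN and 10.85 in CAKI1, above 7.93 in A498 and 7.33 in CAKI2. A498 minus CAKI1 was thus 1.34 in 213258_at (limma adjusted p = 0.000897) and -2.92 in 210665_at (adjusted p = 2.32e-05). Probe set 209676_at also had A498 above CAKI1, by 0.99 (limma adjusted p = 0.0165). In 210664_s_at the 2 lines did not pass (-0.34, limma adjusted p = 0.412). Of all probe set contrasts between lines 28.1% passed. The signals behind this were 294 units in DMSO and 191 in treated A498 cells in 210665_at, against 1840.5 and 1828 in CAKI1. Probe sets of a gene can read different transcripts, and which transcripts these read is not given in the sources used here.

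**Figure D4:**
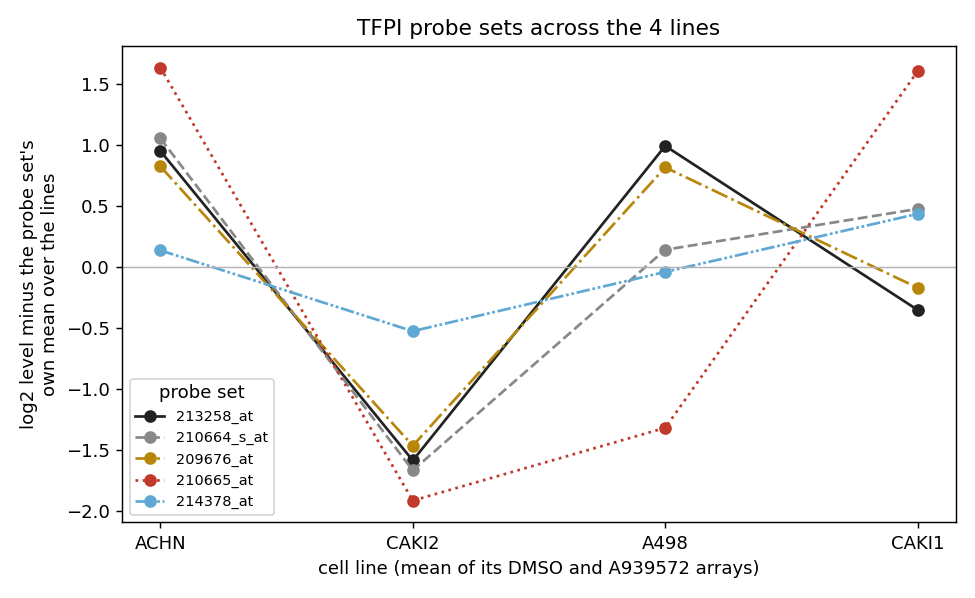
Log2 level of the 5 TFPI probe sets in each cell line (mean of its DMSO and A939572 arrays), each minus its own mean over the lines. CAKI2 is lowest in all 5, while A498 is high in 213258_at and 209676_at and low in 210665_at.

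Genes whose pattern over the 8 arrays was most like that of a member were found by Pearson's r among the tested genes, as a description, since the arrays share 4 lines. For THBD these were ZNF436 (r = 0.987) and TMEM44-AS1 (r = 0.980), which had log2 differences of 0.95 and 1.11 with A939572. For F3 they were SLC1A5 (r = 0.973) and SLC4A2 (r = 0.971), for PLAT TMED4 and CENPK (r = 0.986 and 0.985), and for PLAU LRRC27 (r = 0.991) and PHC1 (r = 0.989). PLAUR was most like HERC5 (r = 0.962) and CLEC2D (r = 0.954), and SERPINE2 most like PFKFB4 (r = 0.980) and MLLT11 (r = 0.976). TFPI was most like PHF23 (r = 0.992) and ZBTB4 (r = 0.979), and TFPI2 most like SPATA18 (r = 0.979) and CCBE1 (r = 0.974). Among the members themselves r was 0.88 between TFPI and TFPI2 and -0.87 between F3 and PLAU. The r was -0.84 between SERPINE2 and TFPI2 and -0.83 between THBD and PLAT, the last pair being called in opposite directions with A939572.

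Other genes of coagulation and fibrinolysis were read from a list of 47, of which 19 were tested. Of the 19, 3 were higher and 7 lower with A939572, with a median log2 difference of -0.29, beside the 14.7% and 15.9% of all genes given above. Of 16 coagulation factors only F8 and F12 were bright enough to test, and 0 of these 2 passed in limma, 1 with an unadjusted p under 0.05. F8, the antihemophilic factor, had -0.46 ± 0.43 (limma adjusted p = 0.0874), and passed without ACHN (-0.65, adjusted p = 0.0307).

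Of 4 tested inhibitors and protein C pathway genes 2 were lower and 1 higher, and of 2 tested protease-activated receptors 1 was lower. The shares over all genes tested were 15.9% lower and 14.7% higher. F2R, the thrombin receptor of the cell surface, fell by 1.67 ± 0.22 on the log2 scale (SD, n = 4 lines; limma adjusted p = 0.000267), in 4 of 4 lines. Its signal in DMSO was 306, 556, 1548 and 1324 units in ACHN, CAKI2, A498 and CAKI1, and 98.2, 171, 415 and 376 units with A939572. Those values are from 203989_x_at. The second F2R probe set, 1569642_at, had -0.45 ± 0.68 and did not pass (limma adjusted p = 0.265). Without probe sets that end in _s_at or _x_at the call of F2R was lost (limma adjusted p = 0.271). PROS1, which encodes protein S, the cofactor of activated protein C, fell by 1.55 ± 0.56 (limma adjusted p = 0.000815), from 3650, 897, 1355 and 2351 units to 2239, 214, 393 and 720 units in the same order. PROCR, the receptor that presents protein C to thrombomodulin, fell by 0.65 ± 0.49 (limma adjusted p = 0.0228), with -1.16 in CAKI1 but -0.04 in CAKI2. That call was lost without A498 (limma adjusted p = 0.0942), without CAKI1 (0.0943) and without the variance trend (0.0601). ANXA5, a protein that covers clot-promoting lipid, was named after its value was seen and rose by 0.34 ± 0.19 (limma adjusted p = 0.0238), a call lost in 8 of 14 alternatives.

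All 5 genes of the vitamin K cycle and of factor secretion passed, 3 lower and 2 higher, where 30.6% of all genes tested passed. This list, like the others, was chosen with earlier results of these data known. GGCX, the carboxylase that activates vitamin K dependent proteins such as protein S, fell by 0.94 ± 0.13 (SD, n = 4 lines; limma adjusted p = 0.00114), and 4 of its 5 probe sets passed. Its signal went from 1480 to 725 units in ACHN, from 670 to 386 in CAKI2, from 1230 to 601 in A498 and from 867 to 449 in CAKI1. LMAN1, which carries factors V and VIII out of the endoplasmic reticulum, rose by 0.80 ± 0.14 (limma adjusted p = 0.000547), from 9763 to 10918 units in DMSO to 15811 to 19747 units in treated cells, and kept its call in all 14 alternatives run. The remaining 3 were named after their values were seen. VKORC1 and VKORC1L1, the vitamin K reductases, fell by 0.49 ± 0.15 (limma adjusted p = 0.0115) and 0.43 ± 0.28 (0.0476), and MCFD2, the partner of LMAN1, rose by 0.53 ± 0.43 (0.0264). VKORC1L1 lost its call in 10 of 14 alternatives and MCFD2 in 5. Of 6 tested genes of the plasminogen system 1 passed, ENO1, a glycolytic enzyme that also binds plasminogen, which fell by 0.28 ± 0.14 (limma adjusted p = 0.0307) and lost its call in 6 of 13 alternatives.

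**Figure D5:**
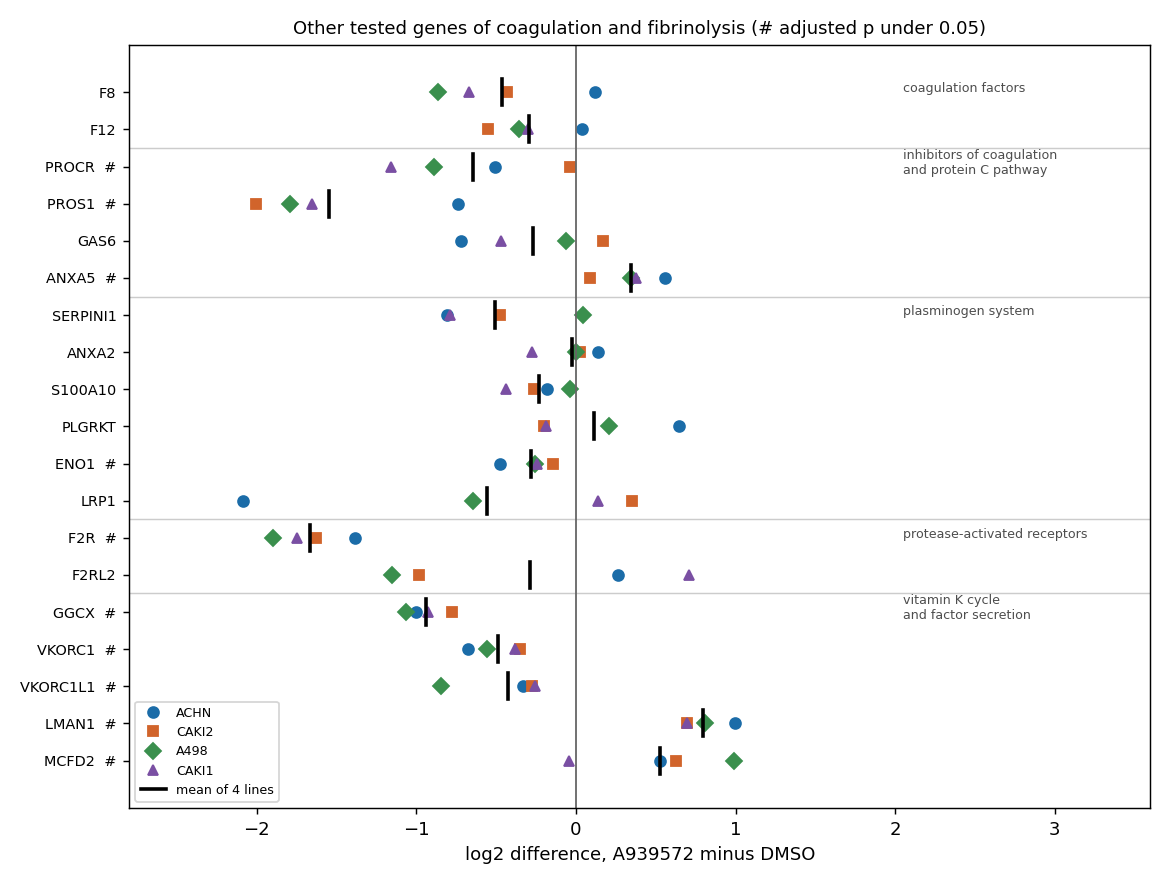
Log2 difference, A939572 minus DMSO, of the 19 tested genes of coagulation and fibrinolysis outside the 8, with 1 symbol per cell line and a black bar at the mean. F2R, PROS1 and GGCX lie left of 0 in all 4 lines, and LMAN1 right of 0 in all 4.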

How the data were processed

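RNA of 8 cell cultures was read on 8 oligonucleotide arrays, 1 per line and treatment. The deposited values are linear intensity signals, 1 per probe set. The program behind them is not given in the sources used here. By their values, the authors scaled each array to a mean signal near 500.07 after trimming 2% of probe sets at each end.

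Signals were transformed as log2(signal + 16). Array medians differed by 0.24, so the arrays were quantile normalized without 62 control probe sets. Of the rest, 41091 probe sets had 1 gene symbol, 1801 several and 11721 none in the table used. Names were updated through Entrez IDs to GRCh38.p14 (41037 matched). The brightest probe set stood for a gene, and genes with a mean at or above 6.41, the median, were tested across all genes with limma 3.58.1 in R 4.3.3 (lmFit, eBayes with trend, 9.28 degrees of freedom, median SE 0.17), Benjamini-Hochberg adjusted. With 4 pairs the smallest 2-sided exact p is 0.125, and precision is limited by the 8 arrays. Line was a block, since both groups hold the same lines. After each gene's mean per treatment was removed, the 2 arrays of a line deviated together over genes (correlation 0.818 to 0.864). Arrays of different lines did not (at most -0.03), but removing the means by itself pushes those correlations below 0 on average.

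Line levels came from the same fit, with 6 contrasts per gene. On simulated data with 12093 genes, the treatment fit recovered 20.9% of 67 changes of 0.58 on the log2 scale. It recovered 76.1% of 67 changes of 1 and 100% of 66 changes of 2, and 11 of 142 calls (7.75%) were false. Only these genes were changed there, far fewer than the 3706 genes called in the data. The adjusted threshold was therefore stricter in the simulation, so these shares do not give the recovery in the data.

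The text names the 8 members, of each other group up to 2 called genes that changed most (with none called, the 1 of smallest p), and the 2 genes most like each member. Members and lists were chosen with earlier results of these data known. Alternatives changed the offset, normalization, filter, probe set choice, block and trend, and left out each line.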

Additional observations from a re-analysis of the deposited data

Results flagged for a closer look

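Lines with opposite signs of the same difference were seen in 6 of the genes described. With 1 pair of arrays per line, none of these differences between lines was tested. The highest minus the lowest log2 difference was 1.81 in PLAUR (CAKI2 against ACHN), 1.77 in F3 (CAKI2 against CAKI1), 1.24 in SERPINE2 (ACHN against CAKI2) and 0.44 in TFPI2 (CAKI1 against CAKI2). It was 1.04 in MCFD2, where CAKI1 alone had -0.04, and 0.99 in F8, where ACHN alone had 0.12.

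In 57 groups of 4 lines, 2 held a line far from the others, where chance gives about 1 in 20. ANXA5 had a DMSO level of 14.47 on the log2 scale in A498 and at most 13.97 in the other lines. VKORC1L1 had a log2 difference of -0.85 in A498 and -0.33 to -0.25 in the others.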

How the results depend on the processing

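THBD kept its direction and its call in 13 of 14 alternatives (2.11 to 2.91), PLAT in 12 of 13 and PLAU in 8 of 13. Without the cell line as a block (no replicate block), where differences between lines enter the error, 67 genes were called in place of 3706, 0 of the 8 members (lowest adjusted p 0.157) and 1 of the other coagulation genes. Leaving out probe sets that end in _s_at or _x_at, which removes PLAT and PLAU altogether, left 1 member called and 5 of the other coagulation genes. Of those others, 5 were called without the variance trend and 5 to 8 with a line left out (5 without A498, 6 without CAKI1), in place of 10. SERPINE2 had -0.062 with the mean of all probe sets, and with a line left out -0.12 (ACHN) to 0.29 (CAKI2), with -0.044 without CAKI1. TFPI2 had -0.027 as deposited, and with a line left out -0.058 (CAKI1) to 0.093 (CAKI2), with -0.025 without A498. None of these SERPINE2 and TFPI2 values passed. Median centring called 58.3% of genes higher among those called, against 48.0%. Leaving treatment out of the line fit gave 2688 genes called in place of 7382. The causes of these changes were not tested, beyond the removal of probe sets and the larger error named. Dim probe sets such as F3 in ACHN limit what a difference near 0 shows.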
